A study of Mus musculus with 12 samples.

Results

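The genes described here encode lysosomal enzymes, lysosomal membrane proteins, autophagy adaptors, the regulators TFEB and TFE3, and the housekeeping subunits of the vacuolar proton pump. They are 40 genes, picked by symbol and found through their Ensembl numbers among 32199 genes in the table of the first set and 31719 genes in the table of the second. All 40 had a mean of at least 0.5 FPKM (fragment counts scaled by transcript length and by all mapped fragments) in the 6 libraries of each set, the level needed to enter the test.

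Bulk poly(A) RNA of mouse kidney was sequenced from 12 animals of a contrast-induced acute kidney injury model, to ask how PAD4, which citrullinates histones in neutrophil extracellular traps, and the alarmin IL-33 bear on ferroptosis and tubular injury. The first set, labelled batch 1, holds 3 Pad4 knockout kidneys and 3 wild-type kidneys. The second, labelled batch 2, holds 3 kidneys labelled Il33 knockout and another 3 wild-type kidneys. All mice were males of 8 weeks, with C57BL/6 given as the strain of the wild type, and all had lost one kidney 3 weeks before. Every group, wild type included, went without water for 24 h and received furosemide 20 min before iodixanol, and kidneys were taken 24 h after iodixanol, so no kidney without contrast is part of the comparisons. The labels do not state how the alleles were made or which exons they lack.

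Lysosomes are acidic compartments in which proteases, glycosidases and lipid-handling proteins break down material delivered by endocytosis and autophagy. Their acidity comes from the vacuolar H+-ATPase, whose V1 sector burns ATP in the cytosol and whose membrane-embedded V0 sector carries protons through a rotating ring of proteolipid subunits. TFEB and TFE3 switch on many of these genes through CACGTG-containing promoter elements when the kinase mTORC1 at the lysosome is inactive. In kidney, the proximal tubule relies on lysosomes to degrade reabsorbed protein, and intercalated cells use special isoforms of the pump to secrete acid.

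The targeted transcripts were measured first. Padi4, which encodes PAD4, was at 0.217, 0.497 and 0.187 FPKM in Pad4 knockout kidneys, against 0.704, 1.06 and 1.67 FPKM in their wild-type kidneys, and fell by 0.71 ± 0.19 on the log2(FPKM + 1) scale (SE, limma adjusted p = 0.0147). Il33 was at 1.14, 0.616 and 1.02 FPKM in kidneys labelled Il33 knockout, against 1.72, 1.13 and 3.64 FPKM in their wild-type kidneys. The groups overlapped and the change of -0.65 ± 0.28 did not pass (SE, limma adjusted p = 0.0990), so transcript of the targeted gene remained under both labels. Il33 was also measured in the first set, at 0.889, 1.58 and 1.28 FPKM in Pad4 knockout kidneys, against 3.57, 5.29 and 3.28 FPKM in wild-type kidneys, and fell there by 1.15 ± 0.23 (SE, limma adjusted p = 0.00208). Padi4 was nearly absent from the second set, wild type included. It was at 0.0107, 0 and 0 FPKM in kidneys labelled Il33 knockout and 0, 0 and 0.022 FPKM in wild-type kidneys, too low to enter the test.

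In the first set, markers of other tissues differed between the groups. The summed FPKM of 11 colon genes ranged from 117 to 217 in Pad4 knockout kidneys and from 386 to 593 in wild-type kidneys, and that of 8 lung genes from 41.9 to 205 in knockout kidneys and from 289 to 835 in wild-type kidneys. All 11 colon genes, all 8 lung genes, and all 8 smooth muscle and fibroblast genes fell, as did 7 of 12 tested macrophage genes (summed FPKM 40.6 to 92.2 in knockout and 101 to 185 in wild-type kidneys). Of 6 tested neutrophil genes 4 fell (Retnlg, Ly6g, S100a9 and S100a8), with sums of 9.69 to 55.8 FPKM in knockout and 49.8 to 166 FPKM in wild-type kidneys. No gene of these lists rose. Of 13 tested proximal tubule genes 12 rose and none fell, with sums of 10120 to 25880 FPKM in knockout and 5102 to 8324 FPKM in wild-type kidneys. Of 9 intercalated cell genes 4 rose and none fell (sums of 117 to 171 FPKM in knockout and 57.4 to 88.1 FPKM in wild-type kidneys). The groups that differ in these lists are those compared in every change given below for the first set. The part of the lists in those changes was not tested. In bulk tissue, fewer cells of a type and less RNA per cell cannot be told apart.

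In Pad4 knockout kidneys, 5 members rose by 3.36-fold to 5.56-fold: the proton pump subunit genes Atp6v1f, Atp6v0c, Atp6v0b and Atp6v1g1, and the autophagy adaptor Gabarapl1. Lgmn, a lysosomal protease, also rose, and Npc2, Ctsl and Scarb2 fell. In all, 6 members rose, 3 fell and 31 did not pass (limma adjusted p below 0.05), and the called members are 22.5% of the list, against a background of 17.7% of the 13986 genes tested. By direction, 15% of members and 8.89% of all genes rose, and 7.5% of members and 8.79% of all genes fell. The libraries of the groups did not overlap for 37.5% of members and 33.0% of all genes, and the median change was 0.05 over members and 0.016 over all genes tested.

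In kidneys labelled Il33 knockout, 6 of 8 genes for glycosidases and their activator rose and none fell. Of 7 proteases, Ctsa, Lgmn and Ctsh rose, while Ctsd and Ctsl fell to 42.8% and 38.7% of the wild-type mean. The autophagy receptor Sqstm1 fell to 31.4% of it. Here 13 members rose, 9 fell and 18 did not pass, so that 55.0% of members were called, against a background of 39.1% of 14513 genes. By direction, 32.5% of members and 22.2% of all genes rose, and 22.5% of members and 16.8% of all genes fell. The libraries did not overlap for 72.5% of members and 54.6% of all genes, and the median change was 0.13 over members and 0.044 over all genes. The plot of members in each library shows both sets.

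**Figure D1:**
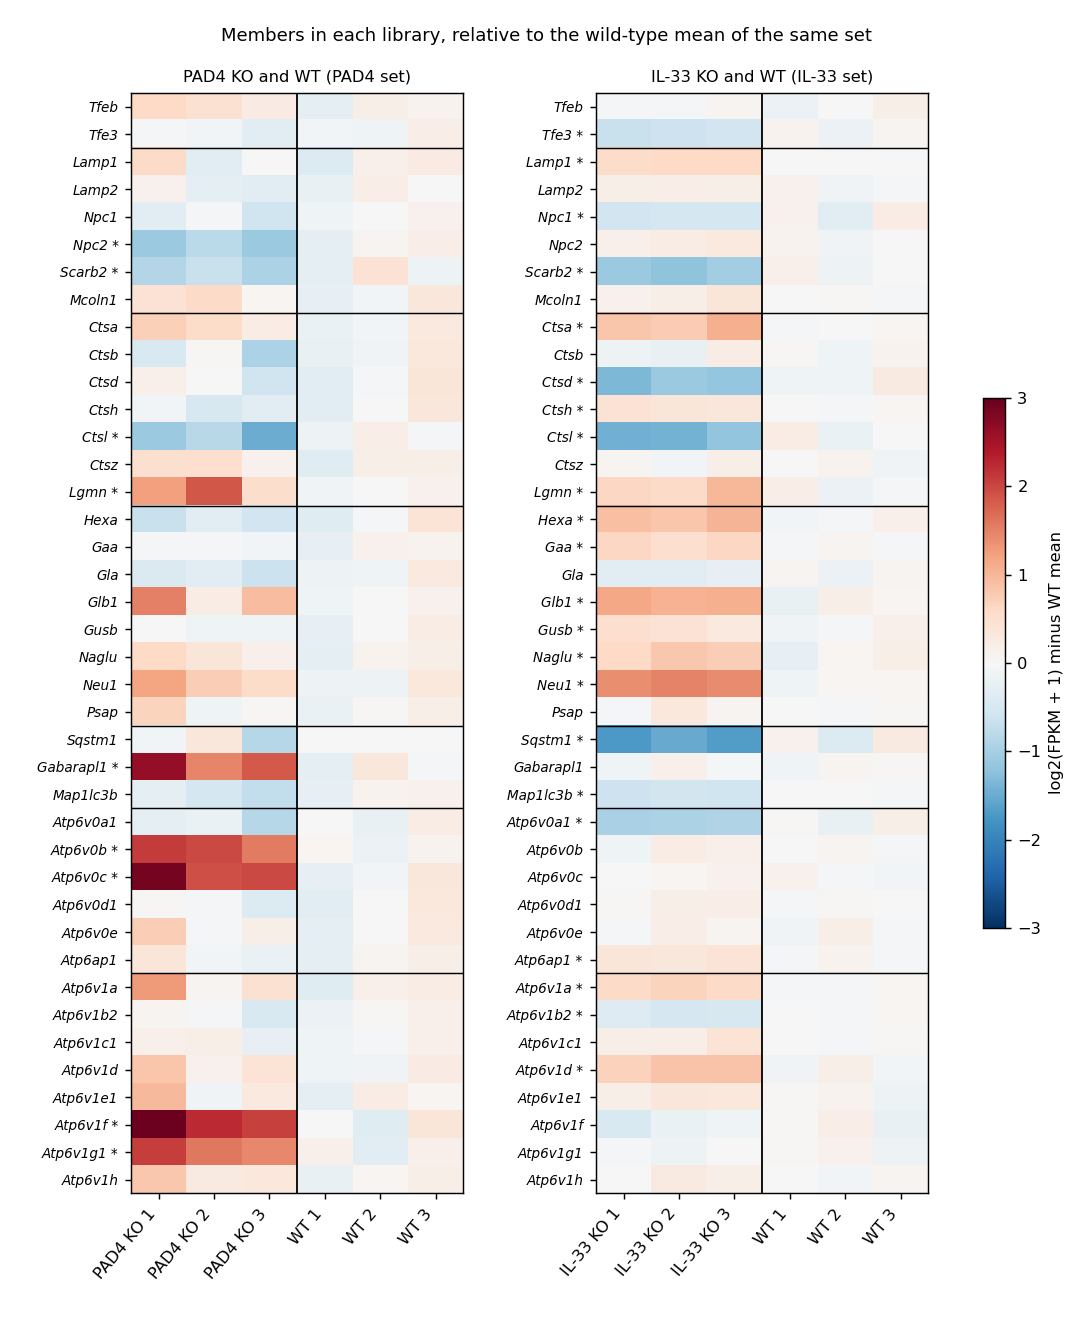
Heat map of the 40 members (rows, grouped by role) in the 12 libraries (columns), as log2(FPKM + 1) minus the wild-type mean of the same set, with knockout libraries left of wild-type libraries. An asterisk marks members with a limma adjusted p below 0.05, which are 9 in the Pad4 knockout panel and 22 in the panel labelled Il33 knockout.

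The regulators came first by role. Tfeb, the transcription factor that drives lysosomal genes, was at 6.71, 5.99 and 4.99 FPKM in Pad4 knockout kidneys, against 3.18, 4.76 and 4.47 FPKM in wild-type kidneys. The groups did not overlap, yet the change of 0.43 ± 0.25 did not pass (SE, limma adjusted p = 0.254). It passed with median-of-ratios scaling (0.42, limma adjusted p = 0.0390) and with quantile normalization (0.39, limma adjusted p = 0.0428). Kidneys labelled Il33 knockout had 5.19, 5.02 and 5.67 FPKM of Tfeb, against 4.55, 5.38 and 6.07 FPKM in wild-type kidneys. Those groups overlapped fully, and the change was -0.0027 ± 0.12 (SE, limma adjusted p = 0.989).

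Tfe3, the close relative of Tfeb, was at 2.00, 1.94 and 1.46 FPKM in Pad4 knockout kidneys, against 1.94, 1.84 and 2.56 FPKM in wild-type kidneys, with overlap and a limma adjusted p of 0.687. Kidneys labelled Il33 knockout had 2.69, 2.86 and 2.92 FPKM of Tfe3, against 5.31, 4.21 and 5.21 FPKM in wild-type kidneys. Every knockout library lay below every wild-type library, and the fall of 0.62 ± 0.12 passed (SE, limma adjusted p = 0.00507). In that set Tfe3 RNA fell and Tfeb RNA did not pass. Their activity is set largely by phosphorylation and entry into the nucleus, which RNA does not measure.

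Among membrane proteins and lipid carriers, Lamp1, a major glycoprotein of the lysosomal membrane, was at 80.5, 42.6 and 54.1 FPKM in Pad4 knockout kidneys, against 40.5, 59.9 and 64.6 FPKM in wild-type kidneys. These libraries overlapped and no change was called (0.08 ± 0.34 SE, limma adjusted p = 0.914). Its level was 477, 493 and 494 FPKM in kidneys labelled Il33 knockout, against 327, 325 and 331 FPKM in wild-type kidneys. Both groups were tight and well apart, and Lamp1 rose by 0.57 ± 0.08 (SE, limma adjusted p = 0.00114). Lamp2, which also serves chaperone-mediated autophagy, did not pass in either set (changes of -0.15 and 0.18 on the log2 scale).

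Scarb2, the receptor that carries glucocerebrosidase to the lysosome, was at 3.36, 4.08 and 3.16 FPKM in Pad4 knockout kidneys, against 5.59, 9.93 and 6.21 FPKM in wild-type kidneys. It fell by 0.83 ± 0.26 (SE, limma adjusted p = 0.0318) with no overlap. The call was lost with TPM scaling (limma adjusted p = 0.0727) and without wild-type libraries 1, 2 or 3 (0.0520, 0.237 and 0.0629) or knockout libraries 1 or 3 (0.0576 and 0.104). Scarb2 was at 8.48, 7.81 and 8.90 FPKM in kidneys labelled Il33 knockout, against 21.7, 17.3 and 19.3 FPKM in wild-type kidneys. It fell by 1.12 ± 0.11 (SE, limma adjusted p = 0.000308), and no library left out ended that call.

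Npc2, the soluble partner that hands cholesterol to NPC1, was at 5.01, 6.50 and 5.03 FPKM in Pad4 knockout kidneys, against 9.79, 12.8 and 14.0 FPKM in wild-type kidneys. The groups were separate, and Npc2 fell by 1.01 ± 0.27 (SE, limma adjusted p = 0.0126), a call lost without wild-type library 3 (change -0.91, limma adjusted p = 0.0590). Its change of 0.22 in kidneys labelled Il33 knockout did not pass (limma adjusted p = 0.106). Npc1, the membrane transporter of that pair, changed by -0.32 in Pad4 knockout kidneys without passing and fell by 0.55 ± 0.16 in kidneys labelled Il33 knockout (SE, limma adjusted p = 0.0303). The fall of Npc1 no longer passed with TPM scaling (limma adjusted p = 0.0503). Without any 1 of the knockout libraries labelled Il33 or of wild-type libraries 1 and 3, its limma adjusted p ranged from 0.0649 to 0.0967.

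Mcoln1, the lysosomal calcium channel and a textbook target of TFEB, was at 5.17, 5.79 and 3.72 FPKM in Pad4 knockout kidneys, against 2.83, 3.31 and 4.73 FPKM in wild-type kidneys. Mcoln1 was at 8.71, 8.91 and 10.4 FPKM in kidneys labelled Il33 knockout, against 7.81, 8.00 and 7.63 FPKM in wild-type kidneys. The first pair of groups overlapped and the second did not, and neither change passed (0.36 and 0.23, limma adjusted p = 0.370 and 0.117).

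The proteases split. Ctsl, a cysteine cathepsin, was at 16.4, 20.3 and 12.3 FPKM in Pad4 knockout kidneys, against 32.9, 42.0 and 35.5 FPKM in wild-type kidneys. It was at 71.2, 72.4 and 86.0 FPKM in kidneys labelled Il33 knockout, against 228, 171 and 195 FPKM in their wild-type kidneys. In both sets every knockout library was below every wild-type library, and Ctsl fell by 1.14 ± 0.30 in the first set (SE, limma adjusted p = 0.0137) and by 1.35 ± 0.13 in the second (SE, limma adjusted p = 0.000278). The call of the first set was lost without wild-type libraries 1, 2 or 3 (limma adjusted p = 0.0520, 0.0681 and 0.0525) and without knockout library 3 (0.0760).

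Ctsd, the aspartic protease of the lysosome, was at 127, 113 and 74.4 FPKM in Pad4 knockout kidneys, against 90.6, 110 and 148 FPKM in wild-type kidneys. These overlapped, and the change of -0.15 ± 0.34 did not pass (SE, limma adjusted p = 0.821). Ctsd was at 297, 348 and 337 FPKM in kidneys labelled Il33 knockout, against 694, 688 and 913 FPKM in wild-type kidneys. The groups were far apart, and Ctsd fell by 1.21 ± 0.13 (SE, limma adjusted p = 0.000485).

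Ctsb, another abundant cysteine cathepsin, was at 32.9, 47.0 and 23.1 FPKM in Pad4 knockout kidneys, against 39.2, 42.5 and 57.8 FPKM in wild-type kidneys. Ctsb was at 135, 129 and 175 FPKM in kidneys labelled Il33 knockout, against 153, 137 and 161 FPKM in wild-type kidneys. The groups overlapped in both sets and neither change passed (-0.46 and -0.05, limma adjusted p = 0.380 and 0.784).

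Lgmn, legumain, cuts after asparagine and processes other cathepsins. It was at 47.7, 75.0 and 28.9 FPKM in Pad4 knockout kidneys, against 18.2, 19.7 and 21.6 FPKM in wild-type kidneys. Knockout libraries were all higher but spread widely, and Lgmn rose by 1.21 ± 0.34 (SE, limma adjusted p = 0.0200). It did not pass without knockout library 2 (0.88, limma adjusted p = 0.0633), without wild-type library 1 or 3 (0.119 and 0.0720) or with quantile normalization (0.0951). In kidneys labelled Il33 knockout Lgmn rose by 0.72 ± 0.15 (SE, limma adjusted p = 0.00693), which makes it the 1 member that rose in both sets.

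Ctsa, the protective protein that stabilises neuraminidase and beta-galactosidase, was at 63.2, 60.7 and 74.8 FPKM in kidneys labelled Il33 knockout, against 33.8, 35.5 and 36.8 FPKM in wild-type kidneys. It rose by 0.88 ± 0.10 (SE, limma adjusted p = 0.000575), while in Pad4 knockout kidneys its change of 0.49 did not pass (limma adjusted p = 0.289). A rise of Ctsa was called in Pad4 knockout kidneys with median-of-ratios scaling. Ctsh, an aminopeptidase, rose by 0.38 ± 0.08 in the second set (SE, limma adjusted p = 0.00841), a call lost without knockout library 1 labelled Il33 (0.35, limma adjusted p = 0.0515). Ctsz passed in neither set (0.37 and 0.05).

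Of the 8 glycosidases and their activator, 6 rose and none fell in kidneys labelled Il33 knockout, with a median change of 0.65, where 22.2% of all genes rose and the median over all genes was 0.044. In Pad4 knockout kidneys none of the 8 passed (median 0.06). The 6 are Neu1, Glb1, Hexa, Naglu, Gaa and Gusb, and all 6 rose under each scaling tried, while Gla fell in both sets with median-of-ratios scaling and with quantile normalization. In Pad4 knockout kidneys those scalings also called a rise of Neu1, and median-of-ratios scaling one of Naglu. Neu1, which removes sialic acid, was at 119, 128 and 122 FPKM in kidneys labelled Il33 knockout, against 41.1, 46.6 and 47.0 FPKM in wild-type kidneys. The groups lay far apart, with a rise of 1.44 ± 0.09 (SE, limma adjusted p = 4.6e-05), the smallest p among the members.

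Glb1, the lysosomal beta-galactosidase, was at 50.7, 47.2 and 47.7 FPKM in kidneys labelled Il33 knockout, against 18.7, 25.0 and 23.3 FPKM in wild-type kidneys. It rose by 1.09 ± 0.12 (SE, limma adjusted p = 0.000411) with no overlap. Hexa, the alpha chain of beta-hexosaminidase, was at 26.7, 25.7 and 29.2 FPKM in kidneys labelled Il33 knockout, against 13.0, 13.2 and 15.7 FPKM in wild-type kidneys. It too was separate and rose by 0.92 ± 0.11 (SE, limma adjusted p = 0.000560). Naglu, which degrades heparan sulfate, rose by 0.72, Gaa, the acid alpha-glucosidase, rose by 0.57, and Gusb, the beta-glucuronidase, rose by 0.42 (limma adjusted p = 0.00406, 0.00216 and 0.0263).

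The call for Gusb was lost without any 1 of the 3 knockout libraries labelled Il33 or of wild-type libraries 1 and 2 (limma adjusted p of 0.0527 to 0.114). The other members of the role are Gla, the alpha-galactosidase A, and Psap, the precursor of the saposins, and neither passed (-0.29 and 0.12, limma adjusted p = 0.0872 and 0.425). Psap had the highest mean level of all members in each of the 4 groups, with 180 ± 56 FPKM in Pad4 knockout and 154 ± 20 FPKM in wild-type kidneys of the first set (SD, n = 3 each). In the second set it had 1065 ± 141 FPKM in kidneys labelled Il33 knockout and 972 ± 26 FPKM in wild-type kidneys (SD, n = 3 each).

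In Pad4 knockout kidneys Glb1 was at 18.3, 6.89 and 11.9 FPKM, against 5.19, 5.89 and 6.41 FPKM in wild-type kidneys. Neu1 was at 46.4, 33.9 and 29.8 FPKM in these knockout kidneys, against 18.1, 17.8 and 25.0 FPKM in wild-type kidneys. Neither group pair overlapped, and both changes missed the threshold (0.88 ± 0.31 and 0.82 ± 0.31 SE, limma adjusted p = 0.0549 and 0.0747). A rise of Glb1 was called with the filter at a mean of 2 FPKM, and one of Neu1 also when limma was run with no trend. Hexa changed by -0.52 there (limma adjusted p = 0.225).

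The promoters of the members that rose in kidneys labelled Il33 knockout were read for CACGTG, the core that TFEB and TFE3 bind. RefSeq promoter windows of build GRCm38.p6, from 250 bases before to 50 after a start, were given for 33 of the 40 members (41 windows). CACGTG, a palindrome and so the same on both strands, was present in 14 of the 33 genes (42.4%, or 34.1% of their windows) and in 7.15% of all 32851 windows. TCACGTGA, also a palindrome and always part of a CACGTG match, was in 17.1% of member windows and 0.974% of all windows. Members were picked for being lysosomal, so this share describes the list and not its change. A match of letters shows no binding.

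The 6 members with the smallest p among those that rose in that set and hold the core are shown by 30 bases around a CACGTG, which is in capitals, each as the strand of its gene reads 5′ to 3′.
Glb1, chr9:114401018-114401047, plus strand: ctgcttctgagtCACGTGgcctacagaggc
Ctsa, chr2:164833749-164833778, plus strand: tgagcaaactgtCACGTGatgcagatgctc
Atp6v1a, chr16:44139373-44139402, minus strand: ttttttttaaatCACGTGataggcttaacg
Lamp1, chr8:13159088-13159117, plus strand: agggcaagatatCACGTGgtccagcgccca
Gaa, chr11:119267811-119267840, plus strand: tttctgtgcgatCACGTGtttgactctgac
Naglu, chr11:101070009-101070038, plus strand: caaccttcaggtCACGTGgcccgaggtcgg

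The core begins 48 bases before the start in Glb1, 12 before in Ctsa, 131 before in Atp6v1a, 61 before in Lamp1, 140 before in Gaa and 73 before in Naglu. Lamp1 holds 4 copies, the most among the 33 members with a window, and its whole 300-base window is given with the copies in capitals, beside that of Neu1, which rose more and holds none.
Lamp1, chr8:13158911-13159210, plus strand: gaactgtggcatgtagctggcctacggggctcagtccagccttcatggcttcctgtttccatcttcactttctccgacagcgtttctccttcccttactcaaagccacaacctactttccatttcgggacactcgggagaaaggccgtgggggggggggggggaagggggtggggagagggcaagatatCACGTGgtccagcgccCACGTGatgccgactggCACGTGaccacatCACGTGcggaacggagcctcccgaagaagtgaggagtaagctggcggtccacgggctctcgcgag
Neu1, chr17:34931003-34931302, plus strand: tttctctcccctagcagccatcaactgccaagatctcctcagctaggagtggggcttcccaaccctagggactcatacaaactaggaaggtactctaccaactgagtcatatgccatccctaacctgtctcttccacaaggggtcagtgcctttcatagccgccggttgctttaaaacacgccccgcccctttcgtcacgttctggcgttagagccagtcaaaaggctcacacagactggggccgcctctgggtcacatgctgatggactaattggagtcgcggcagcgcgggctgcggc

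Among members with a window, CACGTG was in 7 of 12 that rose, 2 of 7 that fell (Ctsd and Ctsl) and 5 of 14 that did not pass in the second set. In the first set it was in 2 of 5 that rose (Atp6v0b and Lgmn), 1 of 3 that fell (Ctsl) and 11 of 25 that did not pass. The 7 that rose in the second set had Lgmn beside the 6 shown. These counts are descriptions of small groups. Lamp1 and Neu1 rose together in that set with 4 cores and with 0.

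Of the 3 autophagy adaptors, Gabarapl1 alone passed in the first set, where it rose, and Sqstm1 and Map1lc3b passed in the second, where both fell. Sqstm1, the p62 receptor that ties ubiquitinated cargo to the growing autophagosome, was at 109, 129 and 114 FPKM in kidneys labelled Il33 knockout, against 400, 275 and 444 FPKM in wild-type kidneys. It fell by 1.64 ± 0.18 (SE, limma adjusted p = 0.000421), the largest fall of any member in that set. In Pad4 knockout kidneys Sqstm1 was at 65.5, 88.5 and 38.0 FPKM, against 69.8, 69.2 and 70.4 FPKM in wild-type kidneys. The knockout libraries lay on both sides of a tight wild-type group, and the change of -0.20 ± 0.35 did not pass (SE, limma adjusted p = 0.756).

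Gabarapl1, an ATG8-family protein that is conjugated to autophagosome membranes, was at 134, 59.0 and 77.3 FPKM in Pad4 knockout kidneys, against 16.9, 26.3 and 19.9 FPKM in wild-type kidneys. It rose by 1.98 ± 0.35 (SE, limma adjusted p = 0.000924). Gabarapl1 averaged 222 ± 23 FPKM in kidneys labelled Il33 knockout and 223 ± 14 FPKM in wild-type kidneys (SD, n = 3 each), and the change was -0.0062 ± 0.10 (SE, limma adjusted p = 0.969). Map1lc3b, the LC3B member of the same family, was at 19.0, 20.1 and 19.6 FPKM in kidneys labelled Il33 knockout, against 30.4, 30.1 and 29.4 FPKM in wild-type kidneys, and fell by 0.59 ± 0.08 (SE, limma adjusted p = 0.00111). Its change of -0.50 in Pad4 knockout kidneys did not pass (limma adjusted p = 0.214), though it was called with median-of-ratios scaling and with quantile normalization. None of the ATG8 transcripts in the list measures the flow of material through autophagy.

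In the V0 sector, Atp6v0c, the main proteolipid of the rotating ring, was at 90.5, 47.3 and 48.4 FPKM in Pad4 knockout kidneys, against 9.65, 10.8 and 14.8 FPKM in wild-type kidneys. The lowest knockout library was well above the highest wild-type library, and Atp6v0c rose by 2.26 ± 0.33 (SE, limma adjusted p = 0.000228). Atp6v0b, another proteolipid of that ring, was at 119, 110 and 81.4 FPKM in Pad4 knockout kidneys, against 28.4, 23.9 and 29.2 FPKM in wild-type kidneys, and rose by 1.88 ± 0.31 (SE, limma adjusted p = 0.000639). Atp6v0c was at 153, 162 and 170 FPKM in kidneys labelled Il33 knockout, against 170, 151 and 147 FPKM in wild-type kidneys. Those libraries were interleaved, and neither Atp6v0c nor Atp6v0b passed (0.05 and 0.08, limma adjusted p = 0.665 and 0.586).

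The other V0 members did not rise in Pad4 knockout kidneys. Atp6v0d1, the stalk subunit, changed by -0.14, Atp6v0a1, a subunit of the proton channel, by -0.44, Atp6v0e, a small membrane subunit, by 0.30, and the accessory protein Atp6ap1 by 0.03. In kidneys labelled Il33 knockout Atp6v0a1 was at 10.3, 10.5 and 10.9 FPKM, against 21.7, 18.0 and 24.1 FPKM in wild-type kidneys. It fell by 0.94 ± 0.12 (SE, limma adjusted p = 0.000815), and Atp6ap1 rose by 0.37 (limma adjusted p = 0.0109). The rise of Atp6ap1 did not pass with median-of-ratios scaling (0.28, limma adjusted p = 0.102) or without knockout library 3 labelled Il33 (0.35, limma adjusted p = 0.0569).

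In the V1 sector, Atp6v1f, a small subunit of the central rotor, was at 205, 127 and 111 FPKM in Pad4 knockout kidneys, against 26.3, 20.0 and 33.5 FPKM in wild-type kidneys. No libraries overlapped, and Atp6v1f rose by 2.41 ± 0.34 (SE, limma adjusted p = 0.000178), the largest change of any member. Atp6v1g1, part of the peripheral stalk that holds the sectors together, was at 135, 95.7 and 86.8 FPKM in Pad4 knockout kidneys, against 34.8, 24.7 and 34.9 FPKM in wild-type kidneys. It rose by 1.71 ± 0.32 (SE, limma adjusted p = 0.00155). Neither passed in kidneys labelled Il33 knockout (-0.26 and -0.06, limma adjusted p = 0.165 and 0.669).

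Atp6v1a, the catalytic subunit that binds ATP, was at 20.5, 8.31 and 11.1 FPKM in Pad4 knockout kidneys, against 5.90, 8.80 and 9.27 FPKM in wild-type kidneys. These overlapped and the change of 0.60 ± 0.32 did not pass (SE, limma adjusted p = 0.213). Atp6v1a was at 77.2, 83.5 and 78.1 FPKM in kidneys labelled Il33 knockout, against 50.5, 51.0 and 54.3 FPKM in wild-type kidneys, and rose by 0.61 ± 0.08 (SE, limma adjusted p = 0.00107). Atp6v1d, a rotor subunit, rose by 0.80 there (limma adjusted p = 0.00128), and Atp6v1b2, the housekeeping B subunit, fell by 0.46 (limma adjusted p = 0.00351).

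Atp6v1c1, Atp6v1e1 and Atp6v1h, the subunits C, E and H, passed in neither set. Their changes were 0.02, 0.38 and 0.47 in Pad4 knockout kidneys and 0.26, 0.28 and 0.14 in kidneys labelled Il33 knockout. In the second set a rise of Atp6v1e1 was called with TPM scaling, and rises of Atp6v1c1 and Atp6v1e1 with mitochondrially encoded genes left out. Of the 14 pump genes in the list, 4 rose and none fell in Pad4 knockout kidneys, where 8.89% of all genes rose and 8.79% fell. With Atp6v1h, 5 rose under median-of-ratios scaling and quantile normalization. The plot of pump subunits by library shows that the 4 stand apart from the rest.

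**Figure D2:**
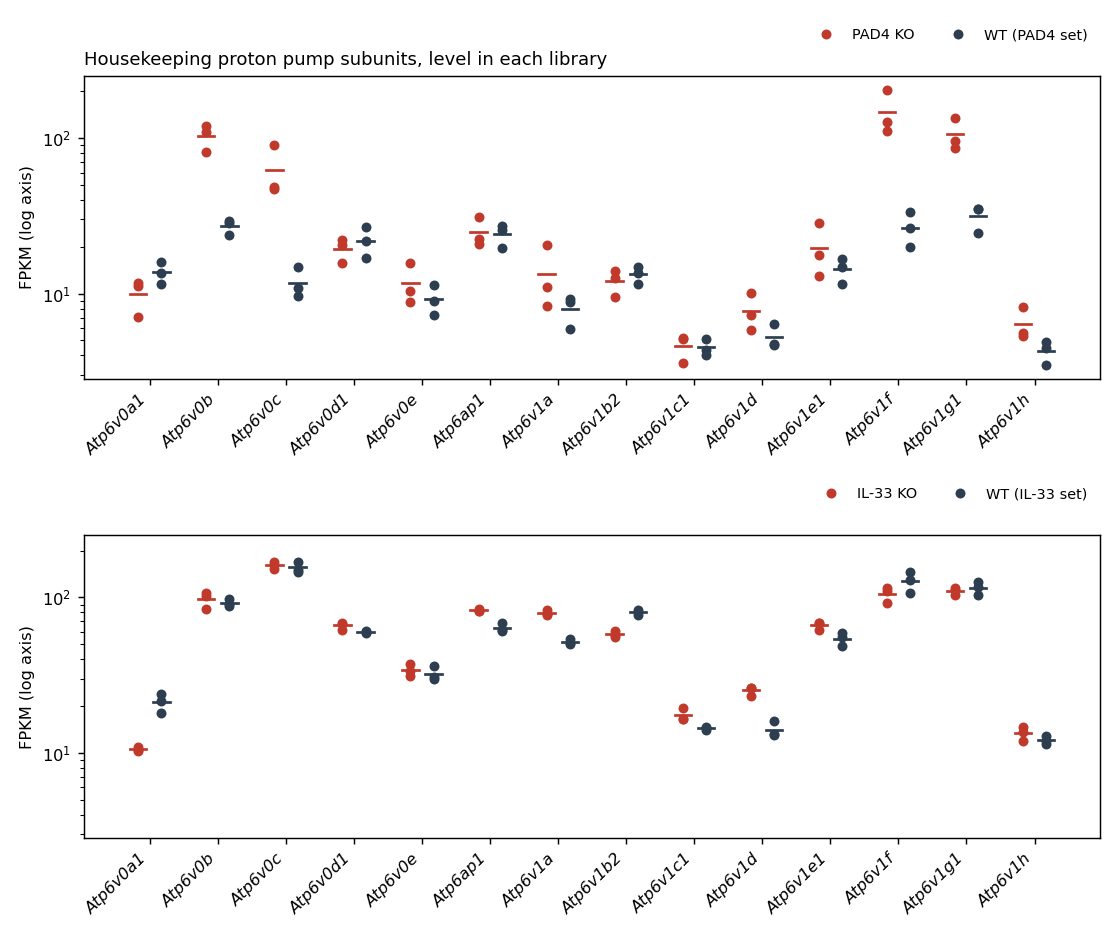
FPKM on a log axis of the 14 housekeeping proton pump genes in each library (points) with the group mean (line), knockout in red to the left of wild type in dark blue. In the upper panel (first set) Atp6v0b, Atp6v0c, Atp6v1f and Atp6v1g1 lie 3.36-fold to 5.56-fold above wild type on average, and in the lower panel (second set) these 4 overlap between the groups.

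Because subunits are assembled in fixed proportions, the balance among their transcripts was taken within each library, where a library's scaling cancels. The sum of Atp6v0b, Atp6v0c, Atp6v1f and Atp6v1g1 over the sum of the other 10 pump genes, in FPKM, was 3.30, 3.34 and 3.02 in Pad4 knockout kidneys, against 1.01, 0.659 and 0.823 in wild-type kidneys. It was 1.01, 1.05 and 1.09 in kidneys labelled Il33 knockout, against 1.27, 1.26 and 1.11 in their wild-type kidneys. The 4 genes were put together after their values were seen, so this ratio is a description with no test.

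For a single pair in V0, Atp6v0c over Atp6v0d1 was 4.09, 2.30 and 3.07 in Pad4 knockout kidneys, against 0.573, 0.50 and 0.554 in wild-type kidneys of the first set. In the second set it was 2.47, 2.39 and 2.48 in kidneys labelled Il33 knockout, against 2.88, 2.47 and 2.45 in wild-type kidneys. By the sum of the 4 over the other 10 genes, the Pad4 knockout libraries lay above all other 9 libraries. By that sum the wild-type libraries of the first set lay below all other 9, though narrowly, with their highest at 1.006 and the lowest of the second set at 1.011. By the pair of Atp6v0c and Atp6v0d1, the wild-type libraries of the first set lay below all other 9. That pair was also chosen after the values were seen, so its ratio is likewise a description with no test. The sets are labelled as different batches, so a batch and a set cannot be told apart.

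The genes of the 5 strong rises are short. Coding sequences of at most 700 bases belong to 9 members, a bound set after the values were seen, and of these 5 rose and 1 (Npc2) fell in Pad4 knockout kidneys, against 1 that rose (Lgmn) and 2 that fell (Ctsl and Scarb2) among the 31 longer members. Atp6v1f has 357 coding bases, Gabarapl1 351, Atp6v1g1 354, Atp6v0c 465 and Atp6v0b 615. Short coding sequence did not go with a rise in every case. Atp6v0e (312 bases), Map1lc3b (519) and Atp6v1e1 (678) changed by 0.30, -0.50 and 0.38 without passing, and in kidneys labelled Il33 knockout none of the 9 rose and 1 (Map1lc3b) fell.

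Over all genes tested in the first set, 11.9% rose and 13.9% fell among those with 1 to 500 coding bases, and 4.45% rose and 6.92% fell among those above 2000 bases. The median change was 0.10 in the shortest class and -0.03 in the longest. In the second set the medians were 0.01 and 0.11. The plot of change by coding length sets the members beside these medians. The part of transcript length in the rises was not tested.

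**Figure D3:**
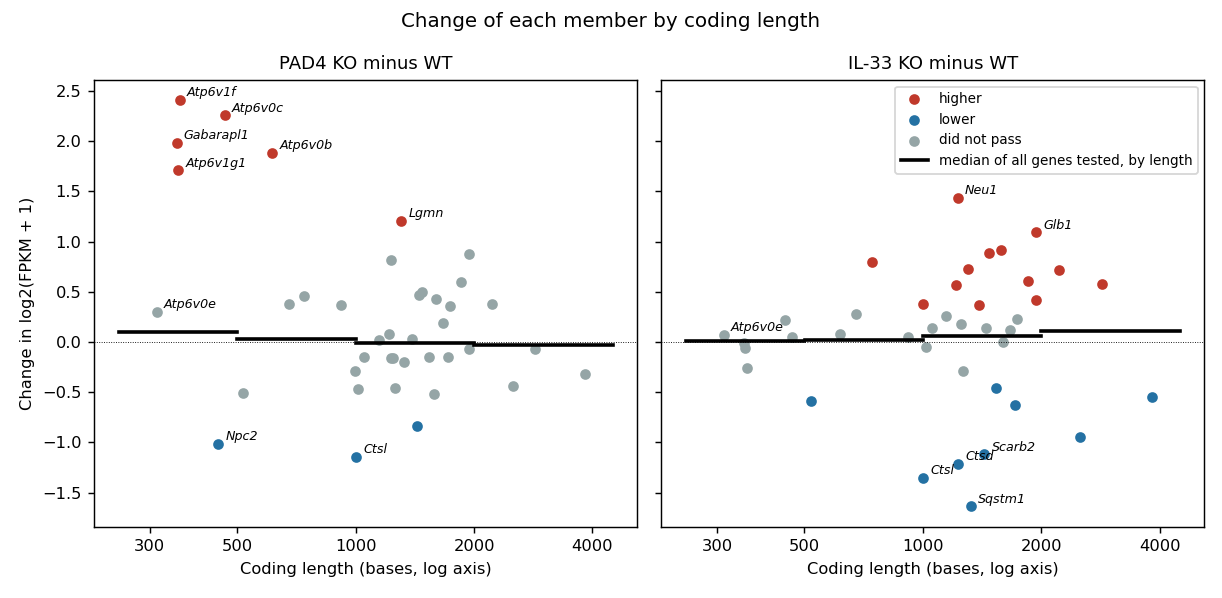
Change in log2(FPKM + 1), knockout minus wild type, of each of the 40 members against coding length in bases (log axis), with members that rose in red, fell in blue and did not pass in grey, and black lines for the median of all genes tested in a length class. In the Pad4 knockout panel 5 members of 351 to 615 coding bases lie between 1.71 and 2.41, while the class medians lie between -0.03 and 0.10.

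Some of these short genes have near-identical copies, between which reads can be split, so their levels are uncertain. Atp6v0c-ps2 is 99.8% identical to the Atp6v0c coding sequence and was at 35.5, 20.4 and 22.4 FPKM in Pad4 knockout kidneys, against 10.7, 10.1 and 13.5 FPKM in wild-type kidneys. The copy was thus also higher in all 3 knockout libraries. Gm13453, 99.4% identical to Atp6v1g1, was at 4.78, 2.55 and 2.79 FPKM in Pad4 knockout kidneys, against 6.01, 2.66 and 5.18 FPKM in wild-type kidneys, where Atp6v1g1 itself was far higher. The copy of Atp6v1f, AC169506.3 (97.5% identity), stayed at or below 0.549 FPKM in Pad4 knockout kidneys and 0.187 FPKM in wild-type kidneys. No such copy was found for Gabarapl1 or Atp6v0b at the identity searched.

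Exons of 15 members overlap another gene, 13 of them on the opposite strand and 3 on the same strand. The libraries are strand-specific per the labels' protocols, but the strand setting of the counting is not given in the sources used here. The partners were low beside the members that changed: Pltp, opposite Ctsa, averaged 3.76 FPKM in the first set and 2.01 in the second, Grtp1, opposite Lamp1, 3.09 and 5.45, and Tmppe, on the strand of Glb1, 0.181 and 1.76. The partners of Map1lc3b and Npc1 were not low beside them, with Zcchc14 at 2.99 and 7.29 FPKM and Rmc1 at 2.85 and 3.64 FPKM.

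Without the filter on low values, limma called 0 of 32199 genes in the first set, though 6053 had an unadjusted p below 0.05. The limma adjusted p of Atp6v1f, Atp6v0c, Atp6v0b, Gabarapl1 and Atp6v1g1 was then 0.0763, 0.0787, 0.0707, 0.0891 and 0.0789. Under every other setting tried, and without any single library, these 5 passed. Exact permutation over 3 libraries against 3 cannot give a p below 0.1, so the calls rest on limma's shared estimate of the spread.

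The change in kidneys labelled Il33 knockout was then set against the change in Pad4 knockout kidneys, each taken within its own set. The difference passed for 8 members, 20.0% of the list, against a background of 12.4% of the 13010 genes tested in both tables (6.18% with a higher and 6.23% with a lower change under the Il33 knockout label). Hexa (1.44 ± 0.28) and Npc2 (1.23 ± 0.24) had the higher change in kidneys labelled Il33 knockout (SE, limma adjusted p = 0.00449 and 0.00480). Atp6v1f (-2.67), Atp6v0c (-2.20), Gabarapl1 (-1.99), Atp6v0b (-1.80), Atp6v1g1 (-1.77) and Sqstm1 (-1.43) had the lower one, with limma adjusted p values from 0.000562 to 0.0237. The 6 other than Sqstm1 and Hexa are those called in Pad4 knockout kidneys and not in kidneys labelled Il33 knockout.

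For Sqstm1 the difference was lost with quantile normalization (-0.97, limma adjusted p = 0.102). It also missed the threshold without knockout library 1 or 3 labelled Il33 or wild-type library 1 or 3 of that set (limma adjusted p of 0.0550 to 0.0625). The higher calls were 2, or 25.0% of the calls among members, and were 5 (35.7%) with median-of-ratios scaling, 9 (56.2%) with quantile normalization, and 4 without wild-type library 1 of the first set. Over all genes the higher calls were 49.8%, and 39.5% with median-of-ratios scaling. That scaling also called a lower change of Tfeb, Tfe3 and Ctsd (limma adjusted p = 0.0180, 0.0282 and 0.00432). Tfeb and Tfe3 passed with quantile normalization too (limma adjusted p = 0.0327 and 0.0277), and Ctsd with no trend (0.0399). The difference contrast shares its groups with the batches, which cannot be told apart from the genotypes.

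Read side by side, Scarb2 and Ctsl fell in both sets and Lgmn rose in both, no member rose in one and fell in the other, and 12 members passed in neither. For Ctsl, Scarb2 and Lgmn the test of the difference itself did not pass. The plot of change against change shows the members along each axis.

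**Figure D4:**
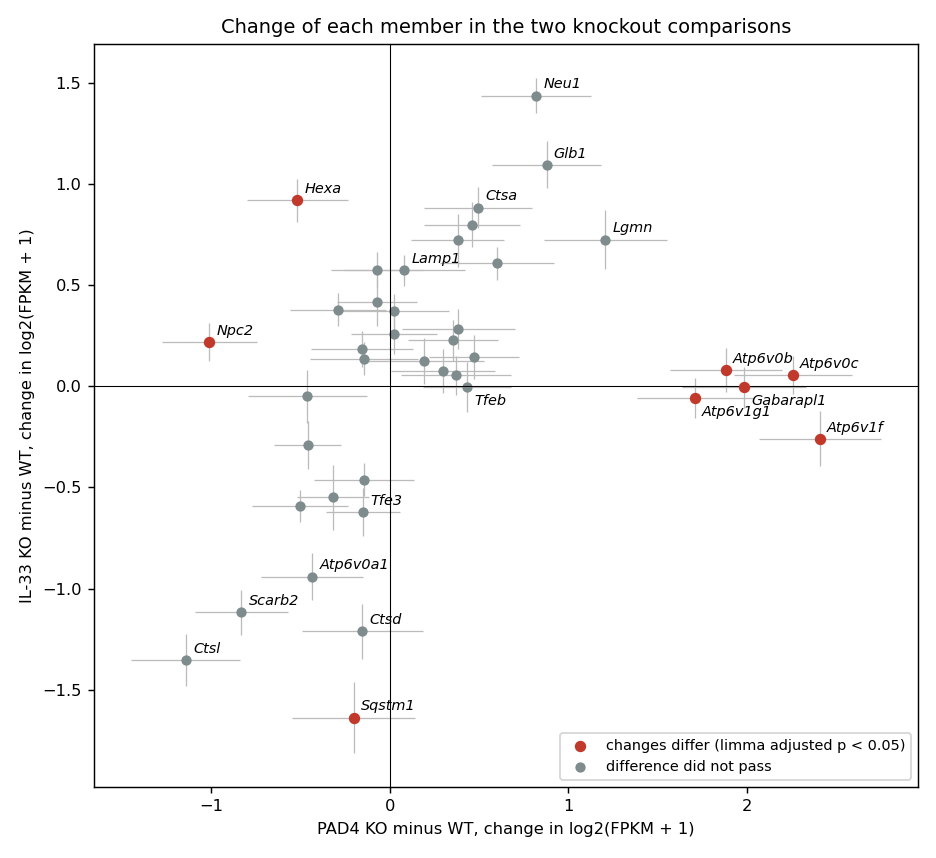
Change in log2(FPKM + 1), knockout minus wild type, of each of the 40 members in Pad4 knockout kidneys (horizontal) and in kidneys labelled Il33 knockout (vertical), with limma's SE as bars and the 8 members whose changes differ in red. Atp6v1f, Atp6v0c, Atp6v0b, Atp6v1g1 and Gabarapl1 lie far right at vertical changes between -0.26 and 0.08, and Sqstm1 lies lowest at -1.64.

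Other genes of these pathways were read from lists of general knowledge. The counts of all 4 lists are to be read beside the shares over all genes tested. In the first set 8.89% of all genes rose and 8.79% fell, and in the second 22.2% rose and 16.8% fell. Whether a list departs from these shares was not tested. Of 49 further lysosomal genes, 3 rose and 2 fell in Pad4 knockout kidneys (median 0.09), and 27 rose and 5 fell in kidneys labelled Il33 knockout (median 0.54). Acp5, the tartrate-resistant acid phosphatase, averaged 31.3 ± 1.7 FPKM in kidneys labelled Il33 knockout and 12.2 ± 1.4 FPKM in wild-type kidneys (SD, n = 3 each). Among those that fell were Grn, Ctsc and Hgsnat, so the list, like the members, did not move one way. In Pad4 knockout kidneys Sgsh, Ppt2 and Tpp1 rose, and Ctsk and Ctss, cathepsins of osteoclasts and of antigen-presenting cells, fell.

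Of 10 tested further pump genes, 3 rose and none fell in Pad4 knockout kidneys: Atp6v1b1, Atp6v1c2 and Atp6v0a4, isoforms used by acid-secreting epithelium. Atp6v1b1 averaged 10.6 ± 3.1 FPKM in Pad4 knockout kidneys and 2.44 ± 0.23 FPKM in wild-type kidneys (SD, n = 3 each). In kidneys labelled Il33 knockout 6 of the 10 rose and none fell, among them Atp6v0e2 with 14.6 ± 1.5 FPKM against 4.32 ± 0.65 FPKM in wild-type kidneys (SD, n = 3 each). Atp6v1b1 rose there too, by 1.57 (limma adjusted p = 0.000265), while 5 of 9 intercalated cell genes rose (sums of 206 to 254 FPKM in knockout and 117 to 145 FPKM in wild-type kidneys). The part of that cell type was not tested.

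Of 27 further autophagy genes, none rose and 1 fell in Pad4 knockout kidneys, where 8.89% of all genes rose and 8.79% fell. In kidneys labelled Il33 knockout 5 rose and 7 fell, where 22.2% of all genes rose and 16.8% fell. Map1lc3a, the LC3A relative of Map1lc3b, was the 1 that fell in the first set, with 16.6 ± 3.1 FPKM in Pad4 knockout and 34.2 ± 2.5 FPKM in wild-type kidneys (SD, n = 3 each). It also fell in the second set, with 46.0 ± 1.9 FPKM in kidneys labelled Il33 knockout and 92.1 ± 4.0 FPKM in wild-type kidneys (SD, n = 3 each). Optn, an autophagy receptor like Sqstm1, fell by 0.89 in the second set (limma adjusted p = 0.00167).

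Of 18 tested genes of mTORC1 and its control of TFEB, 2 rose in Pad4 knockout kidneys (Mtor and Rragd) and 6 in kidneys labelled Il33 knockout, and none fell. Over all genes, 8.89% rose in the first set and 22.2% in the second. Lamtor2 and Lamtor5, parts of the Ragulator complex that anchors mTORC1 to the lysosome, rose by 0.64 and 0.73 in the second set (limma adjusted p = 0.00262 and 0.00341). In the first set their changes of 0.61 and 1.05 did not pass (limma adjusted p = 0.207 and 0.0574).

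Cell markers also moved in the second set. Of 14 proximal tubule genes 10 rose and 1 (Kap) fell. Their sums overlapped and did not rise, at 11850 to 14800 FPKM in kidneys labelled Il33 knockout and 13530 to 18460 FPKM in wild-type kidneys. The proximal tubule sums do not describe the list, whose median change was 1.93. Of 5 thick ascending limb genes 4 rose and none fell (sums of 2568 to 3428 FPKM in kidneys labelled Il33 knockout and 1459 to 2136 FPKM in wild-type kidneys). Of 11 tested macrophage genes, a cell type rich in lysosomes, 9 rose and 2 (Cd14 and Cd68) fell in kidneys labelled Il33 knockout. The macrophage sum was lower, at 89.7 to 95.2 FPKM in these kidneys and 111 to 167 FPKM in wild-type kidneys. That sum does not stand for the list, whose median change was 1.34 while Cd14 alone changed by -4.29. Cd68 is itself a lysosomal membrane protein of macrophages, and it averaged 4.14 ± 0.73 FPKM in kidneys labelled Il33 knockout and 12.4 ± 4.0 FPKM in wild-type kidneys (SD, n = 3 each). Lyz2, the macrophage lysozyme, averaged 18.5 ± 2.1 FPKM in kidneys labelled Il33 knockout and 3.53 ± 2.0 FPKM in wild-type kidneys (SD, n = 3 each). Of 4 tested neutrophil genes none passed. Colon genes summed to 5.28 to 7.70 FPKM in kidneys labelled Il33 knockout and 20.4 to 41.2 FPKM in wild-type kidneys, and lung genes to 0.413 to 0.683 FPKM in kidneys labelled Il33 knockout and 1.16 to 4.12 FPKM in wild-type kidneys. Of 2 tested colon genes Lgals4 fell (-2.45), and the 1 tested lung gene, Ager, fell (-1.14), while 5 colon genes and 4 lung genes, Cdx1, Cdx2, Sftpc and Scgb1a1 among them, were at 0 or not listed. The part of these cells in the rises of the 6 glycosidase genes and in the falls of Ctsd, Ctsl and Sqstm1 was not tested.

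The sum of FPKM in a library was 700601 to 812981 in the first set and 385124 to 420279 in the second, of which mitochondrially encoded genes took 52.0% to 60.0% and 24.1% to 29.2%. Levels were therefore not compared across the sets. No pair of libraries was identical (0 pairs), and sequencing depth is unknown from FPKM.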

How the data were processed

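The authors deposited a table of FPKM per gene for each set, per the file headers, and 0 columns fell outside the samples. Poly(A) RNA went into strand-specific libraries, per the labels' protocols. Tools listed by the submitters' processing notes, with neither order nor version, are cutadapt, FastQC, HISAT2, StringTie, edgeR and DESeq2. Their genome build and annotation: not given in the sources used here. The names of the wild-type columns in the second table hold no genotype, and they were mapped as the only remaining group of that set.

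Deposited Ensembl numbers were matched to symbols (30212 of 32199 and 29690 of 31719 genes). Values were taken as log2(FPKM + 1) from the deposited FPKM. Within each set, genes averaging 0.5 FPKM or more were fitted with limma 3.58.1 in R 4.3.3 (lmFit, eBayes with a trend), two-sided, with Benjamini-Hochberg adjustment over all genes and a threshold of 0.05. Changes are knockout minus wild type on that scale, where the added 1 understates the change of low genes. The difference of changes was a contrast of 4 group means over 12 libraries. The fits were tested on simulated data. Coding lengths (stop codon left out) and exon overlaps came from GENCODE M21, near copies from blastn 2.17.0+, and promoter windows from RefSeq (GRCm38.p6).

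The members, lists and settings were chosen with earlier results of these data known. Named with every library value are up to 12 members per comparison that passed, smallest p first, and Tfeb, Tfe3, Mcoln1, Lamp1, Ctsb, Ctsd, Ctsl, Sqstm1, Atp6v0c, Atp6v1a, Padi4 and Il33. Other settings were a pseudocount of 0.1, no filter, a filter at a mean of 2 FPKM, TPM, median-of-ratios and quantile scaling, mitochondrially encoded genes left out, no trend, the replicate number as a block, and each library left out. Depth is unknown, so no counting interval is given. The labels call the libraries of a group separate biological replicates.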

Additional observations from a re-analysis of the deposited data

Results flagged for a closer look

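In 8 members the change in kidneys labelled Il33 knockout differed from the change in Pad4 knockout kidneys by limma's contrast over all 12 libraries. The difference, on the log2(FPKM + 1) scale, was 1.23 for Npc2, 1.44 for Hexa, -1.43 for Sqstm1, -1.99 for Gabarapl1, -1.80 for Atp6v0b, -2.20 for Atp6v0c, -2.67 for Atp6v1f and -1.77 for Atp6v1g1. Each set is its own batch, so batch and genotype cannot be told apart in these differences.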

How the results depend on the processing

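In the first set, the counts of members that rose and fell in Pad4 knockout kidneys were 6 and 3, and of genes called 2473. They became 0, 0 and 0 without the filter (6053 genes at an unadjusted p below 0.05), where 32199 genes entered the test. Members that rose were 11 with median-of-ratios scaling, and members that fell were 5 with median-of-ratios scaling and 5 with quantile normalization. With 1 library left out, members that rose ranged from 5 to 7, members that fell from 0 (without wild-type library 3) to 3, and genes called from 1064 (without wild-type library 1; 1323 without wild-type library 3) to 3534. In kidneys labelled Il33 knockout, the 13 rises and 9 falls stayed within 1.5 times under every setting; with 1 library left out they ranged from 11 to 13 and from 8 to 10, and genes called, 5671, from 3626 (without knockout library 1; 3687 without knockout library 3) to 6131. For the difference, members with a higher change were 2, or 2 to 4 with 1 library left out. They were 5 with median-of-ratios scaling and 9 with quantile normalization. Members with a lower change were 6, or 5 to 7 with 1 library left out. They were 9 with median-of-ratios scaling and 7 with quantile normalization. Genes whose difference passed were 1615, and 1011 under a filter at a mean of 2 FPKM, 3101 with median-of-ratios scaling, 3112 with quantile normalization and 1055 to 1859 with 1 library left out. The cause of these shifts was not tested. Directions were followed only for called members and Tfeb, Tfe3, Mcoln1, Lamp1, Ctsb, Ctsd, Ctsl, Sqstm1, Atp6v0c and Atp6v1a. Among these the direction turned only where the change had not passed. In the first set this held for Lamp1 (-0.31 with quantile normalization, -0.16 to 0.29 with 1 library left out). There Ctsd ranged from -0.32 to 0.072 and Sqstm1 from -0.47 to 0.12 with 1 left out. In the second set this held for Tfeb (0.028 with TPM scaling, 0.041 without mitochondrially encoded genes, -0.095 to 0.081 with 1 library left out), Ctsb (0.0012 without mitochondrially encoded genes, -0.18 to 0.031 with 1 left out) and Atp6v0c (-0.038 with median-of-ratios scaling), and in the difference for Ctsl (0.020 with quantile normalization) and Atp6v1a (-0.035 with a pseudocount of 0.1, -0.074 with median-of-ratios scaling, -0.26 to 0.35 with 1 left out). Deviations of same-numbered libraries correlated at -0.0159, -0.113 and -0.146 in the first set and -0.0144, 0.134 and -0.00166 in the second. Those of libraries with other numbers ranged from -0.129 to 0.232 and from -0.125 to 0.13. So few libraries cannot settle whether the replicate numbers pair them. With the number as a replicate block, 5 members rose and 0 fell in Pad4 knockout kidneys, 12 rose and 9 fell in kidneys labelled Il33 knockout, and 2 and 6 differed.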
